A study of Mus musculus with 3 samples.

Results

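The mitosis and G2/M genes described here are 45 of the 31053 genes counted in 1 droplet capture of mouse spleen cells enriched for dendritic cells. They were chosen by name, from a list of genes whose transcripts or products peak between the end of DNA replication and cell division. The rule uses no measured value, but the list was drawn up with earlier results of these data known. By role, 7 are cyclins, cyclin-dependent kinase (CDK) partners and a phosphatase, 7 act on chromosome structure, 11 on the centromere and kinetochore, 15 on the spindle, and 5 on mitotic exit and cytokinesis. Of the 45, 37 are narrow members, rarely made outside dividing cells. The other 8 (Hmgb2, Anp32e, Tubb4b, Tmpo, Cks1b, Cks2, Smc4 and Ncapd2) are broad members with uses in cells that do not divide, and were kept apart in sums.

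During G2, Cdk1 joins cyclin A (Ccna2) and then the B cyclins (Ccnb1, Ccnb2), and its activity drives chromosome condensation and spindle assembly. Kinetochore proteins such as Cenpf and Ndc80 attach chromosomes to the spindle, with the kinase Aurkb and its partner Birc5 correcting faulty attachments. Cdc20 then activates the anaphase-promoting complex, for which Ube2c supplies the ubiquitin, and cyclin B is destroyed. In the spleen, conventional dendritic cells (cDC) arise from precursors that still divide, and some cDC divide in the tissue. Plasmacytoid dendritic cells (pDC) and mature dendritic cells, which have turned up Ccr7, are mostly out of cycle.

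The cells came from the spleens of C57BL/6 mice and were enriched over an Optiprep gradient, sorted as GFP-negative, and passed through Pan-DC magnetic negative selection. The pool holds 6 hashed samples, each marked by its own hashtag antibody: 2 from leukemia-bearing mice given vehicle (5% dextrose in water), 2 from leukemia-bearing mice given panobinostat, 1 wild-type (WT) vehicle and 1 WT panobinostat. Panobinostat (LBH589) is an inhibitor of histone deacetylases, and treatment lasted 2 days. The labels give C57BL/6 as the strain for the capture and the series title names acute myeloid leukemia, but no allele or leukemia clone is used here. They do not say whether each hashed sample is 1 mouse, so p-values measure the spread between these samples, which may be technical, and each WT treatment has 1 sample.

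Of 38717 barcodes, all distinct, 22281 (57.5%) carried 1 hashtag, 13703 (35.4%) several and 2733 (7.06%) none, and 19410 cells were kept after filters on genes, mitochondrial UMIs and doublet score. The 6 samples held 1693 to 6665 kept cells and 13452937 to 48479768 UMIs. Doublet calls were removed from 593 of 3855 single-tag cells rich in G2/M UMIs (15.4%) and from 1033 of the others (6.01%). The library labelled leukemia vehicle 2 stood apart: its median own-tag count was 94, against 354 to 773 in the other samples. Its tag was weak in erythroid-like cells (median 58) and in clusters 9 and 10 (71 and 63), of which it held 83.5% and 76.7%, while its DC-like cells carried medians of 259.5 to 529. The WT panobinostat tag was low in the same cells too (80, 70 and 73), as was the leukemia panobinostat 2 tag in erythroid-like cells (74). Conditions were therefore compared only within 4 DC-like classes, which raised 7 or more of their fixed markers in every cluster. These were pDC-like (2683 cells), cDC1-like (3380), cDC2-like (4002) and mature DC-like (2489) cells.

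The start-site regions of 5 members are shown as examples of genes called in the treatment tests. Cdc20, Ccnb2 and Cenpf are among the 7 members called for a different panobinostat response in WT and leukemia cDC1-like cells. Mki67 and Top2a are among the 6 that rose there in the test over all samples. Each is the 150 bases before the RefSeq start site (GRCm38.p6), 5′ to 3′ in the gene's direction. Capitals mark the CCAAT box (CCAAT or its reverse ATTGG), the element read by NF-Y, and the cell cycle gene homology region (TTTGAA or its reverse TTCAAA), read by MuvB complexes.
Cdc20 (chr4:118437344-118437493, minus strand): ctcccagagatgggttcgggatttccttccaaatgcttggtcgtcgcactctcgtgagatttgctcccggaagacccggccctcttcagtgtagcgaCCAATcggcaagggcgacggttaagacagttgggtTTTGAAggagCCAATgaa
Ccnb2 (chr9:70421555-70421704, minus strand): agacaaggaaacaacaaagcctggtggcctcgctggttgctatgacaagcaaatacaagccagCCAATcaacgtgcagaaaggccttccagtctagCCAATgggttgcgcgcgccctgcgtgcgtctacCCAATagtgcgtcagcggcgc
Cenpf (chr1:189688087-189688236, minus strand): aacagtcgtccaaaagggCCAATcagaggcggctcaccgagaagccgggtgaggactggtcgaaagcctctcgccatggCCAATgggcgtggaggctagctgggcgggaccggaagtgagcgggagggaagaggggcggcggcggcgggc
Mki67 (chr7:135716380-135716529, minus strand): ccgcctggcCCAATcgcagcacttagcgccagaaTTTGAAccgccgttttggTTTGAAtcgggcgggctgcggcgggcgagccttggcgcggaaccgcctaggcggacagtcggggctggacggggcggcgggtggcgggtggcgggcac
Top2a (chr11:99024190-99024339, minus strand): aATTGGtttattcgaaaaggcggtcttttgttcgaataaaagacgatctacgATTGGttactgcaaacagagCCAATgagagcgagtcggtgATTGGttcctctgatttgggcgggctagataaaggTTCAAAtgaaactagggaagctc

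RefSeq windows of 300 bases, from 250 before the start to 50 after it, were found for 39 of the 45 members, and a gene with several windows was counted as holding a motif if any of them did. Both strands were searched, and neither motif contains the other. TTTGAA or its reverse was found for 29 of the 39 members (74.36%), against 20.23% of all 27025 genes with a window. CCAAT or its reverse was found for 31 (79.49%, against 41.06%), and both in the same window for 24 (61.54%, against 7.974%). In the printed stretches all 5 genes hold a CCAAT box, Mki67 and Top2a hold both elements, and Cdc20 holds its TTTGAA next to its last CCAAT box. A match describes letters in a window and shows no binding.

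Among the 4 DC-like classes, the summed level of the 37 narrow members was 1411 CPM (UMIs scaled to an equal library total) in cDC2-like cells and 815 CPM in cDC1-like cells. Mature DC-like cells stood at 340 CPM and pDC-like cells at 167 CPM. For scale, the erythroid-like cells, a rapidly dividing lineage, stood at 4513 CPM. With the broad members added, the sums were 3115, 2051, 986, 760 and 9163 CPM in the same order. By the narrow members the pDC-like class was lowest and the cDC2-like class highest of the 4 in each sample. By all 45 members WT panobinostat was an exception, with 820 CPM in pDC-like and 816 CPM in mature DC-like cells.

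A G2/M-high cell was defined as one with at least 3 UMIs of the narrow members after thinning every cell to 2000 UMIs, which leaves out shallower cells (4.04% of those kept). The share of such cells was 14.2% in the cDC2-like class (exact binomial 95% interval 13.1 to 15.3) and 12.5% in the cDC1-like class (11.4 to 13.6). It was 3.67% in mature DC-like cells (2.94 to 4.53) and 0.790% in pDC-like cells (0.490 to 1.21). These intervals cover counting error only, over cells pooled from all samples. Between both cDC classes the order varied by sample. In leukemia vehicle 1 the cDC1-like share was 13.3% and the cDC2-like share 12.2%. In leukemia panobinostat 1 they were 12.8% and 11.5%, and in WT panobinostat 18.4% and 17.2%. The order was the other way in leukemia vehicle 2 (13.8% and 23.5%), leukemia panobinostat 2 (15.2% and 15.6%) and WT vehicle (7.67% and 12.98%). Before thinning, the median cDC1-like cell had 12662 UMIs, and medians of the remaining 3 classes were 4830 to 5455. Without thinning, the mean G2/M-high share in cDC1-like cells was 48.99% with panobinostat and 39.3% with vehicle. In cDC2-like cells it was 28.5% and 28.95%. Free RNA can give UMIs in cells that do not make a gene, and how much of the pDC-like share it gives was not tested. At 2000 UMIs 28.0% of pDC-like cells still held a UMI of some narrow member, against 31.3% of mature DC-like, 37.1% of cDC1-like and 44.6% of cDC2-like cells.

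**Figure D1:**
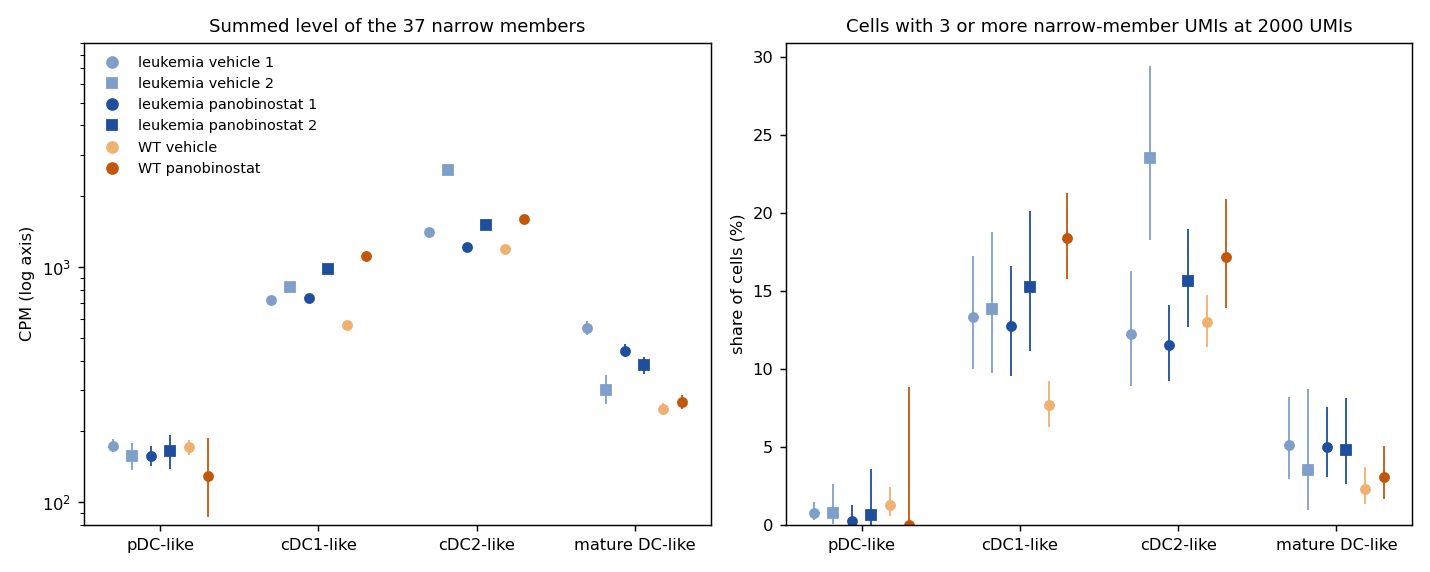
Level of G2/M genes in 4 DC-like classes of 6 hashed samples. The left panel gives the summed CPM of the 37 narrow members on a log axis with Poisson intervals and the right panel the percent of G2/M-high cells with exact binomial intervals (both 95%). The pDC-like class lies lowest, and leukemia vehicle 2 is the highest cDC2-like sample, with 23.5% G2/M-high cells.

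Most narrow-member UMIs sat in few cells. G2/M-high cells held 75.2% of them in the cDC1-like class and 82.2% in the cDC2-like class, but 46.5% in mature DC-like and 7.04% in pDC-like cells. Per G2/M-high cell at 2000 UMIs the mean was 12.1 narrow-member UMIs among cDC2-like cells, 7.43 among cDC1-like and 3.05 among pDC-like cells, whereas the remaining cells of the 4 classes averaged 0.320 to 0.434. Cycling cells formed a cluster of their own within both cDC classes, although the cell-cycle genes were kept out of the clustering. Cluster 15 (328 cDC2-like cells) had 99.4% G2/M-high cells and 7868 CPM of narrow members. Cluster 16 (280 cDC1-like cells) had 85.4% and 3522 CPM. Outside them the shares were 5.33% and 7.08% in the other cDC1-like clusters and 6.59% and 5.96% in the other cDC2-like clusters.

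In both cDC-like classes G2/M-high cells had larger libraries and higher antibody counts of CD11c, the integrin that marks dendritic cells. In each of the 6 samples they had more UMIs than the other cells of their class, by a median ratio of 1.20 to 1.56 in cDC1-like and 1.44 to 1.59 in cDC2-like cells. CD11c antibody counts were 1.06 to 1.33 times and 1.23 to 1.34 times as high. S-phase UMIs at equal depth were 3.68 to 6.41 times and 4.47 to 6.83 times as high. Each of these ratios was above 1 in 6 of 6 samples, which in an exact two-sided sign-flip permutation test gives p = 0.03125, the smallest possible with 6 samples (adjusted p = 0.0586 over 15 tests). Siglec-H antibody, a pDC marker, had ratios of 0.881 to 1.04 and 0.965 to 1.03 (exact permutation p = 0.81 and p = 0.875). In mature DC-like cells of 5 samples the ratio ran from 0.935 to 1.42 for UMIs and from 0.997 to 1.86 for CD11c, above 1 in 4 of 5 for each (exact permutation p = 0.125, adjusted p = 0.156), and from 4.196 to 10.6 for S-phase UMIs (exact permutation p = 0.0625, the smallest possible with 5). CD11c was not compared at equal library size, and its link with the larger libraries was not tested.

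The members differed widely in level. CPM from these 3′ tags are not corrected for length and rank a gene across classes rather than genes against each other. Hmgb2, a chromatin-bending protein of many cell types, stood at 605 CPM for cDC1-like cells, 937 for cDC2-like, 312 for mature DC-like and 252 for pDC-like ones, and 38.7% of thinned pDC-like cells held a UMI of it. Mki67, which coats mitotic chromosomes and is the standard proliferation marker, stood at 70.3, 128, 26.4 and 9.73 CPM in the same classes. Its share of thinned cells with a UMI was 8.22%, 11.4%, 3.37% and 1.62%. Top2a, which untangles sister chromatids, stood at 90.7, 188, 38.7 and 12.9 CPM.

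Cyclins and kinases were lower but ordered alike. Cdk1 stood at 35.6 CPM for cDC1-like cells, 43.5 for cDC2-like, 11.5 for mature DC-like and 4.99 for pDC-like ones, and 4.36%, 5.13%, 2.01% and 1.05% of thinned cells held it. Ccnb1 stood at 12.1, 16.8, 6.26 and 3.05 CPM. The lowest member was Cdc25c, the phosphatase that activates Cdk1, with 75, 37, 12 and 1 UMIs in all. Some members had another order of levels. Anp32e, a histone chaperone, stood at 107 CPM in pDC-like, 88.0 CPM in cDC1-like and 39.4 CPM in mature DC-like cells. Hjurp, which loads the centromeric histone Cenpa, stood at 21.3 CPM in pDC-like, 21.6 in cDC1-like and 20.8 in mature DC-like cells.

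Summed counts per class and sample were compared between classes with edgeR's quasi-likelihood test, with the sample as a block and Benjamini-Hochberg adjustment over 10963 genes. Cdc25c was too low for the filter, which left 44 members. Cell classes were found by clustering on other genes, and genes that move with division still shaped the clusters, so these class differences describe the classes as drawn. Against cDC2-like cells, cDC1-like cells had 33 of 44 members lower, beside 29.2% of all genes lower, and 1 higher, beside 29.1% of all genes higher. The median log2 difference was -0.60. By role, 10 of 11 kinetochore members, 6 of 7 chromosome members, 9 of 15 spindle members, 4 of 6 cyclin and CDK members and 4 of 5 exit members were lower.

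Nusap1 was furthest below its cDC2-like level (log2 difference -1.31, it bundles spindle microtubules), then the condensin subunit Ncapd2 (-1.10) and the kinetochore protein Cenpf (-1.06). Anln (-0.95), a furrow scaffold, and the motors Cenpe (-0.92) and Kif11 (-0.91) followed. Top2a (-0.86), Ube2c (-0.78), Ccnb2 (-0.70), Birc5 (-0.68), Mki67 (-0.67), Cenpa (-0.60), Ccna2 (-0.51) and Hmgb2 (-0.47) were lower too, and Ccnb1 only just (-0.41, edgeR adjusted p = 0.0489). Cks1b, which holds Cdk substrates and also serves S-phase entry, was the member that was higher in cDC1-like cells (log2 difference 0.46, SE 0.106, edgeR adjusted p = 0.000402). Aurkb (-0.27, adjusted p = 0.0835), Cdc20 (-0.12, adjusted p = 0.543) and Cdk1 (-0.11, adjusted p = 0.42) did not pass the edgeR threshold.

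The difference was smaller outside the cycling clusters. Those were picked by their share of G2/M-high cells, which the narrow members define, so a smaller difference is partly built in. When clusters 15 and 16 were left out, an alternative added after seeing the data, 6 of 40 members were lower in cDC1-like cells, beside 28.7% of all genes, and 4 were higher, beside 27.5%, so both counts lay under the share over all genes. The median was -0.21. The 4 were Cks1b (0.80), the motor Kif23 (0.72), Tacc3 of the kinetochore fibres (0.40) and the lamina protein Tmpo (0.31), named after their values were seen. Thinning all cells to 2000 UMIs left 18 of 35 lower, beside 22.1% of all genes.

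Against mature DC-like cells, cDC1-like cells had 38 of 44 members higher, beside 34.7% of all genes, and none lower, with a median log2 difference of 1.09. Kif23, a cytokinesis motor, led with 1.83, followed by Cks1b (1.75), Cdc20 (1.73), Cdk1 (1.53), the kinetochore protein Nuf2 (1.47) and Aurkb (1.41). The other anchor genes, the 12 well-known members named in every comparison, ran down to Ccnb1 (0.73). Without the cycling clusters 9 of 40 members were higher, beside 33.2% of all genes, and 3 were lower, beside 35.7%, again under the share over all genes, with a median of 0.10. The 3 were Nusap1 (-0.87), Hjurp (-0.58) and the tubulin Tubb4b (-0.55), named after their values were seen. There Ccnb1 (-0.16), Top2a (-0.09) and Ube2c (-0.24) were on the other side of 0. No mature DC-like cluster was left out, so dividing cells were removed from the cDC1-like side only.

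Against pDC-like cells, 43 of 44 members were higher in cDC1-like cells, beside 35.4% of all genes, with a median of 2.64. Anp32e was the member that did not pass (log2 difference 0.09, edgeR adjusted p = 0.387). The checkpoint kinases Bub1 (3.69) and Ttk (3.54) and the kinetochore protein Ndc80 (3.51) differed most, then Kif23 (3.45), Cenpe (3.26) and Anln (3.25). Mki67 differed by 3.15 and Cenpa by 0.91. All 44 members were higher in cDC2-like than in pDC-like cells, beside 32.5% of all genes, with a median of 3.18 and values for the anchor genes from Cenpa (1.505) to Top2a (3.99). Without the cycling clusters, 35 of 40 members were higher in cDC1-like (beside 34.3% of all genes) and 38 of 40 in cDC2-like (beside 31.7%) than in pDC-like cells. Tubb4b was then lower in cDC2-like cells (-0.39, 1 of 40, beside 29.6% of all genes). Here too, cells were removed from the cDC side only. Bulk sums cannot tell apart fewer dividing cells from less RNA per dividing cell, and the shares of G2/M-high cells above are the measure that counts cells.

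Lists of other cycle genes were read beside the members. Of 43 other mitosis genes, 34 were lower and 1 higher in cDC1-like than in cDC2-like cells (median -0.62). Of 40 S-phase genes, 15 were lower and 4 higher (median -0.14). Of 18 cell-cycle brakes, 8 were lower and 3 higher. Of all genes, 29.2% were lower and 29.1% higher, and the counts of higher genes lay under that share in each list. The separase gene Espl1 (-1.76), the CDK inhibitor Cdkn2a (-2.70) and the growth-arrest gene Gadd45a (1.62) differed most. Against mature DC-like cells, cDC1-like cells had 33 other mitosis genes and 39 S-phase genes higher, beside 34.7% of all genes. There 13 of 18 brakes, among them Cdkn2b (-5.36), Cdkn2a (-5.13) and Gadd45b (-4.17), were lower, beside 3911 of 10963 genes. Against pDC-like cells, 36 other mitosis genes and 39 S-phase genes were higher in cDC1-like cells, beside 35.4% of all genes. In cDC2-like cells 41 and 39 were higher, beside 32.5%. Troap, a spindle protein (4.17 and 4.89), and the replication clamp partner Pclaf (4.31 and 4.71) led. Cep55 (4.02) and Cit (4.49), both of cytokinesis, were among the 3 largest as well.

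Panobinostat against vehicle was tested in each class over the 6 samples with disease as a covariate. In cDC1-like cells 6 of 44 members rose and none fell, beside 1.13% of 10014 genes that rose. The median log2 fold change was 0.55, and all 44 values were above 0, beside 48.6% of all genes. Those that rose were Ckap2l, a spindle-pole protein (log2 fold change 0.90, adjusted p = 0.0265), the kinesin Kif20b (0.74, adjusted p = 0.0423), Tacc3, which stabilises kinetochore fibres (0.68, adjusted p = 0.0366), Mki67 (0.61, SE 0.106, adjusted p = 0.0164), Top2a (0.57, adjusted p = 0.0366) and Cks1b (0.44, adjusted p = 0.0486), all by edgeR.

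Mki67 stood at 57.4 and 68.8 CPM in the leukemia vehicle samples, 75.8 and 97.7 CPM with panobinostat, and at 49.9 CPM in WT vehicle and 88.0 CPM in WT panobinostat. Every panobinostat sample thus lay above every vehicle sample. Top2a stood at 77.3 and 87.6 CPM in leukemia vehicle, 90.6 and 138.0 CPM in leukemia panobinostat, 66.5 CPM in WT vehicle and 109.1 CPM in WT panobinostat, again without overlap. Ckap2l stood at 6.94 and 8.90 CPM, 10.5 and 11.6 CPM, 6.66 CPM and 16.0 CPM in the same order. The values of Tacc3 ran from 14.2 to 21.0 CPM with vehicle and from 21.5 to 31.0 CPM with panobinostat, and those of Cks1b from 82.0 to 114.9 CPM and from 119.6 to 156.1 CPM. Kif20b ran from 10.1 to 13.5 CPM and from 14.6 to 23.9 CPM. These 6 genes were called by the test on these same samples, so the gap between their groups adds nothing to the calls. How many members without a call, or how many of all genes, also lacked overlap was not counted.

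The remaining anchor genes did not pass in cDC1-like cells. Ccnb1 stood at 0.67 (adjusted p = 0.201), Aurkb at 0.64 (adjusted p = 0.0959), Birc5 at 0.53 (adjusted p = 0.126) and Cdk1 at 0.52 (adjusted p = 0.0791) on the log2 scale in the edgeR fit. Ccna2 and Cdc20 had log2 fold changes of 0.56, Hmgb2 and Ube2c of 0.28, Cenpa of 0.24 and Ccnb2 of 0.19. The S-phase list moved with them: 22 of 40 genes rose (median 0.56). Of the other mitosis genes 2 of 43 rose (median 0.54), and 0 of 17 brakes changed. Dscc1, which loads the replication clamp ring (1.03), cyclin E1 (Ccne1, 0.94) and the kinase Melk (0.93) rose most.

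The count in cDC1-like cells rested on the whole set of samples. It was 0 without either WT sample, without leukemia panobinostat 2 or without leukemia vehicle 1, 24 without leukemia panobinostat 1 and 27 without leukemia vehicle 2. It was 0 in the leukemia samples alone, 3 by DESeq2 and 17 without the cycling clusters.

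Panobinostat gave no call among the members in the other classes by edgeR. In cDC2-like cells 0 of 44 passed, beside 0.102% of all genes (median -0.12, 1 at an unadjusted p under 0.05), with anchor genes from Cdc20 (-0.30) to Mki67 (0.04). In mature DC-like cells 0 of 35 passed, beside 0.403% (median 0.00, 0 at an unadjusted p under 0.05), from Cdc20 (-0.33) to Ccna2 (0.54). In pDC-like cells 0 of 17 passed, beside 0.201% (median -0.01, 2 at an unadjusted p under 0.05), from Mki67 (-0.42) to Cdc20 (0.74).

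The share of G2/M-high cells gave no difference past the threshold in any class. With 3 samples against 3 the exact permutation test cannot go below p = 0.1. In cDC1-like cells the share was 15.5% ± 2.83 with panobinostat and 11.6% ± 3.41 with vehicle (SD, n = 3 each), a difference of 3.88 percentage points (exact two-sided permutation p = 0.3, adjusted p = 0.6 over 4 classes). In cDC2-like cells it was 14.8% ± 2.94 against 16.2% ± 6.32 (exact permutation p = 0.8, adjusted p = 0.8), and the direction turned without leukemia vehicle 2 (2.17 points) or leukemia panobinostat 1 (0.17 points). In mature DC-like cells it was 4.29% ± 1.06 against 3.65% ± 1.40 (exact permutation p = 0.7, adjusted p = 0.8), with the direction turned without WT vehicle (-0.024 points). In pDC-like cells it was 0.295% ± 0.331 against 0.925% ± 0.314 (exact permutation p = 0.1, adjusted p = 0.4). The WT panobinostat sample held 40 pDC-like cells and none was G2/M-high (exact binomial 95% upper bound 8.81%). The pDC-like sum of this sample also held 4471 CPM of the 7 plasma cell markers, against 169 to 211 CPM in the other samples. The source of these counts was not tested.

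Leukemia against WT was tested in the same fit. In mature DC-like cells 5 of 35 members were higher in leukemia, beside 2.15% of all genes, with a median log2 difference of 0.59. Values were above 0 for 33 of 35, beside 50.3% of all genes. Cenpf differed most (1.80, SE 0.365, edgeR adjusted p = 0.0129). It stood at 20.5 and 7.60 CPM in leukemia vehicle, 15.6 and 8.63 CPM in leukemia panobinostat, 4.49 CPM in WT vehicle and 3.18 CPM in WT panobinostat. Nusap1 (1.14, adjusted p = 0.0317), Birc5 (0.91, adjusted p = 0.0137), Mki67 (0.88, adjusted p = 0.0205) and Top2a (0.79, adjusted p = 0.0219) were the others that passed in edgeR. Birc5 stood at 24.3 to 42.2 CPM in the 4 leukemia samples and at 16.3 and 19.1 CPM in the WT samples, and Mki67 at 22.8 to 39.1 CPM and 19.9 and 15.9 CPM. The called genes were chosen by the test on these samples, so that their groups lie apart adds nothing to the calls.

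The mature DC-like class was not made of the same cells in both disease states. Cluster 12, in which 10.3% of cells were G2/M-high, made up 28.5% to 47.3% of the class in the leukemia samples and 9.44% and 4.31% in WT vehicle and WT panobinostat. Cluster 6, with 1.66% G2/M-high cells, made up 32.8% to 47.9% and 52.2% and 46.5%. Markers of other cell types moved as well, in both directions. The 6 progenitor markers, 1 of them at 0, summed to 33.4 to 48.6 CPM in leukemia and to 26.7 and 15.5 CPM in WT. The 11 erythroid markers, none at 0, summed to 2039 to 3547 CPM in leukemia and to 1391 and 2295 CPM in WT, and the 8 T cell markers, none at 0, to 55.7 to 77.3 CPM and 53.9 and 46.3 CPM. Other sets were lower in leukemia. The 7 plasma cell markers, 1 at 0, summed to 9.12 to 22.6 CPM in leukemia and to 47.0 and 36.8 CPM in WT. The 7 monocyte markers, 1 at 0, summed to 141 to 175 CPM and to 182 and 219 CPM. The 6 acinar markers, none at 0, summed to 4.47 to 7.60 CPM and to 22.2 and 8.13 CPM. The part of the cluster composition and of these cells in the 5 calls was not tested. The calls fell to 0 without the G2/M-high cells, by DESeq2, without either WT sample and without leukemia vehicle 1. G2/M-high cells are defined by the narrow members and held 46.5% of their UMIs in this class, so the loss of calls without them is partly built in. Of genes in the other lists, Cdkn2a (1.17) and Pclaf (1.004) were higher and Cdkn1a, the CDK inhibitor p21, was lower (-0.49).

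No member differed between leukemia and WT in the other classes by edgeR. In cDC1-like cells 0 of 44 passed beside 9.1% of all genes (median -0.09, 1 at an unadjusted p under 0.05, 0 by DESeq2), from Ube2c (-0.60, adjusted p = 0.0758) to Aurkb (0.16). The S-phase list did differ there, with 16 of 40 genes higher in leukemia (median 0.41), among them cyclin E2 (Ccne2, 0.83) and the uracil glycosylase Ung (0.76), while Gas2l3 of the mitotic midzone was lower (-0.68). In cDC2-like cells 0 of 44 passed beside 0.317% (median 0.19), from Mki67 (0.06) to Ube2c (0.53). In pDC-like cells 0 of 17 passed beside 1.02% (median -0.12), from Ube2c (-0.31) to Cdc20 (0.55).

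The response to panobinostat itself differed between leukemia and WT cDC1-like cells for 7 of 45 members, all with the smaller response in leukemia, beside 0.126% of 10348 genes. The test is the interaction of treatment and disease in edgeR, with 2 residual degrees of freedom, and the lone WT samples are assumed to vary like the leukemia samples. It cannot be fitted without either WT sample, so only leukemia samples were left out in turn. The median difference over the 45 was -0.70, and 42 of 45 values were below 0, whereas 49.7% of all genes had values above 0. The 7 were 3 of the 7 cyclin and CDK members, 2 of 11 kinetochore members and 2 of 5 exit members, with 0 of 15 spindle and 0 of 7 chromosome members. The count depended on the method and the samples: it was 1 by DESeq2 and 2 with cells thinned to 2000 UMIs, and it was 10 without leukemia panobinostat 1, 22 without leukemia panobinostat 2, 14 without leukemia vehicle 1 and 8 without leukemia vehicle 2.

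Cdc20, the anaphase activator (ENSMUSG00000006398, chr4:118432901-118437352, minus strand, GRCm38), differed most. It stood at 17.8 and 18.3 CPM in leukemia vehicle, 12.6 and 15.5 CPM in leukemia panobinostat, 8.60 CPM in WT vehicle and 26.1 CPM in WT panobinostat. The treated leukemia samples were below the untreated ones, while in WT the treated sample was higher. Its log2 difference of response was -1.91 (SE 0.241, edgeR adjusted p = 0.00256).

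Ccnb2 (chr9:70407692-70421547, minus strand) showed the same layout, at 20.1 and 23.5 CPM, 13.9 and 15.5 CPM, 13.03 CPM and 26.01 CPM in that order (difference -1.499, SE 0.227, edgeR adjusted p = 0.0115). Ccnb1 stood at 11.8 and 11.6 CPM, 9.79 and 11.6 CPM, 6.97 CPM and 19.5 CPM (difference -1.56, edgeR adjusted p = 0.0322). WT vehicle was the lowest and WT panobinostat the highest of the 6 samples for Ccnb1 and Ccnb2, as for Cdc20. This layout is not particular to the called genes. Over all 45 members WT vehicle was the lowest for 38 and WT panobinostat the highest for 26. The same was not counted over all genes, so a shift of a whole sample cannot be told apart from a trait of the members.

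Ube2c, the ubiquitin-conjugating partner of the anaphase-promoting complex, stood at 61.9 and 61.5 CPM in leukemia vehicle and 48.6 and 49.7 CPM in leukemia panobinostat, against 51.3 CPM in WT vehicle and 110.7 CPM in WT panobinostat (difference -1.38, SE 0.151, edgeR adjusted p = 0.00157). Cenpa, the centromeric histone, stood at 46.3 and 41.8 CPM, 34.0 and 33.8 CPM, 28.4 CPM and 58.6 CPM (difference -1.38, edgeR adjusted p = 0.00256). In both, the 2 treated leukemia samples were below the 2 untreated ones. This held for 4 of the 45 members, while for 13 the treated samples were above both untreated ones. The shares of all genes with either layout were not counted. The called genes were chosen on these samples, so their layout adds nothing to the calls.

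Cenpf (chr1:189640606-189688086, minus strand) stood at 18.002 and 23.2 CPM, 21.2 and 22.2 CPM, 14.2 CPM and 38.2 CPM (difference -1.28, edgeR adjusted p = 0.0353). Ccna2, which acts earlier, from S phase on, stood at 20.3 and 22.4 CPM, 17.97 and 23.2 CPM, 12.1 CPM and 29.1 CPM (difference -1.27, edgeR adjusted p = 0.0497). For these last genes the leukemia groups overlapped and the WT pair was far apart. Cdc20, Ube2c, Cenpf and Ccna2 each overlap a gene on the opposite strand in the annotation (Elovl1, Tnnc2, Gm37239 and Exosc9), as do Top2a, Tacc3, Ckap2l and Nusap1 among the genes called above, and whether the counting used strand is not given in the sources used here.

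Birc5 (-0.94, adjusted p = 0.0937), Aurkb (-0.73), Hmgb2 (-0.54), Cdk1 (-0.46), Mki67 (-0.30) and Top2a (-0.19) were not called for a different response in edgeR. No gene of the other lists was called: 0 of 43 other mitosis genes (median -0.53), 0 of 40 S-phase genes (median -0.22) and 0 of 17 brakes.

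**Figure D2:**
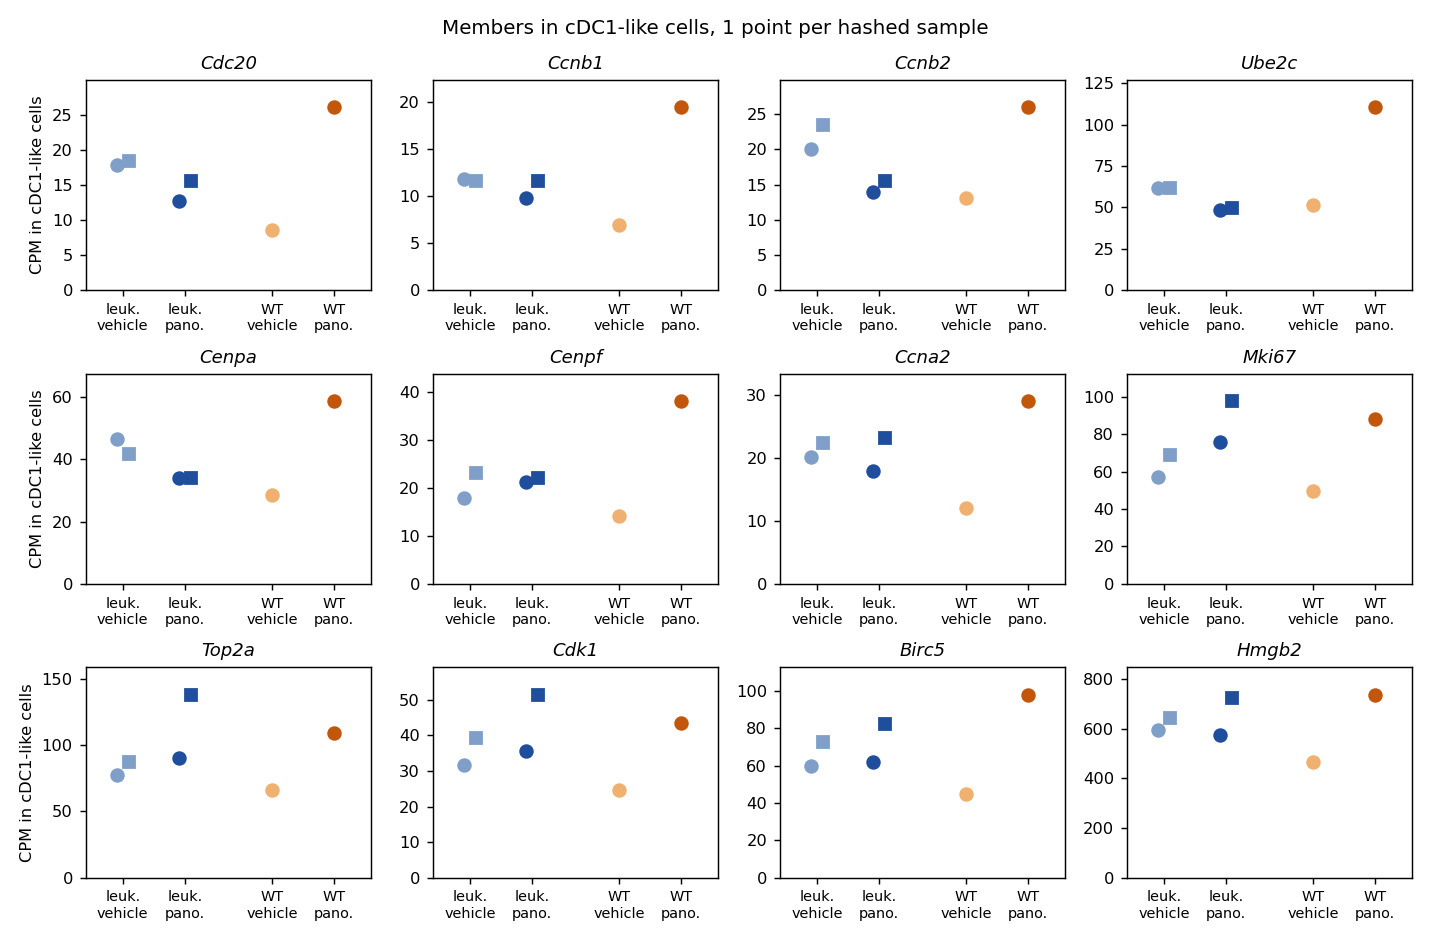
CPM of 12 members in cDC1-like cells of the 6 hashed samples, each panel starting at 0. Cdc20, Ccnb1, Ccnb2, Ube2c and Cenpa peak in WT panobinostat (26.1 CPM for Cdc20) and are not higher in the treated leukemia samples, whereas Mki67 and Top2a are higher with panobinostat in both disease states.

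The fit also gives the response in each disease state, but WT has 1 sample per treatment, so the WT values rest on 1 against 1 with the spread taken from the leukemia samples. Within WT cDC1-like cells, 24 of 45 members rose with panobinostat, beside 0.821% of all genes, with a median log2 fold change of 0.98 and all 45 values above 0. Cdc20 rose by 1.57, Ccnb1 by 1.45, Cenpf by 1.40, Cenpe by 1.26, Ccna2 and Ckap2l by 1.24, Birc5 by 1.09, Ube2c by 1.08, Aurkb by 1.04, Cenpa by 1.02, Ccnb2 by 0.97, Mki67 by 0.79 and Hmgb2 by 0.63 on the log2 scale. Cdk1 (0.79, edgeR adjusted p = 0.0571) and Top2a (0.69, edgeR adjusted p = 0.0948) did not pass. Of the other mitosis genes, Cit (1.502), Cep55 (1.397) and the motor Kif20a (1.38) rose most. Within leukemia, 0 of 45 passed by edgeR, beside 1.07% of all genes that rose (median 0.14, 10 at an unadjusted p under 0.05), although 4 of 40 S-phase genes rose (median 0.46), among them E2f1 (0.71) and the ligase Lig1 (0.57), as did the stress gene Gadd45b (1.13). There Ccnb2 (-0.53), Cenpa (-0.36), Cdc20 (-0.34) and Ube2c (-0.30) had values below 0, and Mki67 (0.49) and Top2a (0.50) above it. The median ratio of mean CPM of the members, panobinostat over vehicle, was 2.01 in WT and 1.09 in leukemia. Within WT, 48.4% of all genes had log2 fold changes above 0. These within-disease values come from the same samples and the same fit as the difference of response and are not separate evidence.

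In cDC2-like cells no member was called for a different response by edgeR (0 of 45, beside 0.0983%, 26 at an unadjusted p under 0.05), with a median of -0.81 and 44 of 45 values below 0. Values ran from Cdc20 (-2.08, adjusted p = 0.173) to Top2a (-0.55) among the anchor genes. The within-WT and within-leukemia tests called 0 members each, beside 0.147% and 0.236% of all genes, with medians of 0.40 and -0.49. For the difference of response, 50.9% of all genes had values above 0, and the share of all genes at an unadjusted p under 0.05 is not given here. In cDC2-like cells leukemia vehicle 2 was the highest sample. Ube2c stood at 114.9 and 290.1 CPM in leukemia vehicle, 101.1 and 120.8 CPM in leukemia panobinostat, 83.1 CPM in WT vehicle and 124.7 CPM in WT panobinostat. Ccnb1 stood at 13.1 and 47.7 CPM, 14.2 and 16.8 CPM, 12.1 CPM and 20.4 CPM. Without leukemia vehicle 2 the interaction called 7 members and without leukemia vehicle 1 it called 29. In mature DC-like and pDC-like cells 0 of 37 and 0 of 23 passed, beside 0.055% and 0.223% of all genes.

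**Figure D3:**
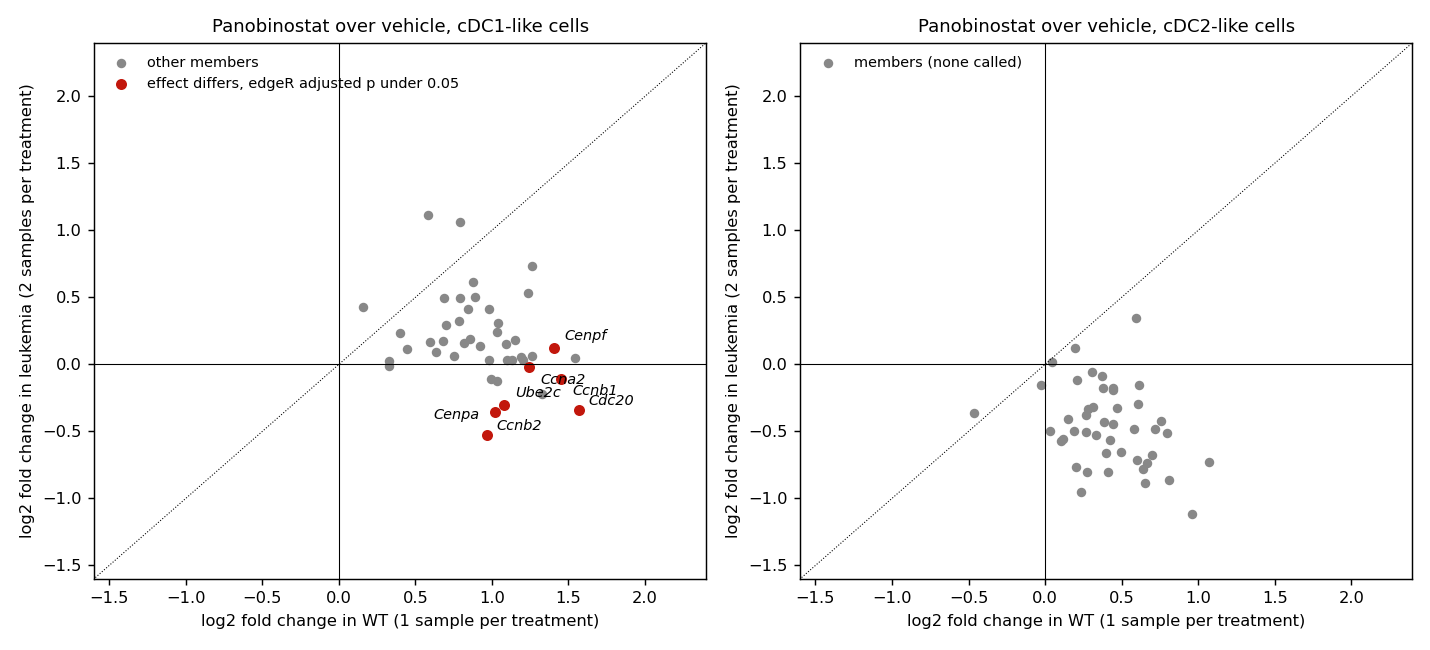
Log2 fold change of each member with panobinostat in WT (x axis) and in leukemia (y axis), for cDC1-like and cDC2-like cells, with the line of equal response dotted. Red points are the 7 members whose response differed (edgeR adjusted p under 0.05), and most members lie to the right of and below the line in both classes.

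Other measures moved with the samples in cDC1-like cells. The share of G2/M-high cells of the vehicle samples was 13.3% and 13.8% for leukemia and 7.67% for WT, and that of the panobinostat samples 12.8% and 15.2% for leukemia and 18.4% for WT, from 34 to 147 such cells per sample. Cluster 16 made up 8.79% and 12.6% of the class in leukemia vehicle and 4.62% in WT vehicle, against 8.11% and 11.5% and 11.8% in their panobinostat samples. Median depth ran from 11291 UMIs in WT vehicle to 14411 in WT panobinostat, with 12836 to 14379.5 in leukemia. S-phase genes summed to 943 CPM in WT vehicle, 1553 CPM in WT panobinostat, 1421 and 1557 CPM in leukemia vehicle and 1707 and 2289 CPM in leukemia panobinostat. The 12 mature DC markers, none at 0, summed to 716 and 452 CPM in leukemia vehicle, 1153 and 1090 CPM in leukemia panobinostat and 1223 and 1146 CPM in WT. The 11 erythroid markers, none at 0, summed to 1082 and 1890 CPM, 787 and 742 CPM, and 1044 CPM in both WT samples. The 8 neutrophil markers, none at 0, summed to 0.861 to 9.25 CPM in 5 samples and to 22.3 CPM in WT panobinostat. The part of each in the different response was not tested. G2/M-high cells are defined by the narrow members and held 75.2% of their UMIs in this class, so leaving them out removes calls partly by design. With G2/M-high cells left out before summing, 0 of 38 members were called.

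Most of the 7 genes also stood together in a measure that used no treatment contrast but was taken from the same samples, so it is not separate evidence. Among 970 G2/M-high cDC1-like and cDC2-like cells, the S-phase UMIs of cells with a UMI of a member were divided by those of cells without it, so that a low ratio marks a gene read in cells with few S-phase UMIs. Cells with Cdc20 (123 cells) averaged 4.46 S-phase UMIs and those without averaged 10.2, a ratio of 0.44. Ccnb2 (0.57), Ccnb1 and Cenpa (0.58), Ube2c (0.61) and Cenpf (0.69) were also low, as were Cdc25c (0.41, 9 cells), Kif2c (0.59) and Cenpe (0.68), which were not called. Ccna2 was at 1.01, beside Cdk1 (1.08) and Birc5 (1.04). Hmgb2 (2.16), Top2a (1.52) and Mki67 (1.21) were read together with S-phase genes. The list thus holds genes read in cells with few S-phase UMIs and genes read in cells with many. Both classes and all samples were pooled for this ratio. G2/M-high cells averaged 6.85 to 9.37 S-phase UMIs per sample in the cDC1-like class and 9.55 to 12.1 in the cDC2-like class. Within the cDC1-like class they averaged 6.85 in WT vehicle, 7.22 in WT panobinostat (147 cells) and 7.31 to 9.37 in leukemia. In the cDC2-like class WT vehicle (10.8) and WT panobinostat (10.2) lay inside the leukemia range. The parts of the class mix and of the sample mix in the ratios were not tested.

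Across the 45 members this ratio and the difference of response in cDC1-like cells had a Pearson r of 0.43 and a Spearman rho of 0.55. In cDC2-like cells they were 0.38 and 0.50. Against the response within WT cDC1-like cells they were -0.48 and -0.52, and within leukemia 0.22 and 0.35. These are descriptions across genes, which are not independent. The cells are shared by both measures, and the contrasts share samples.

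**Figure D4:**
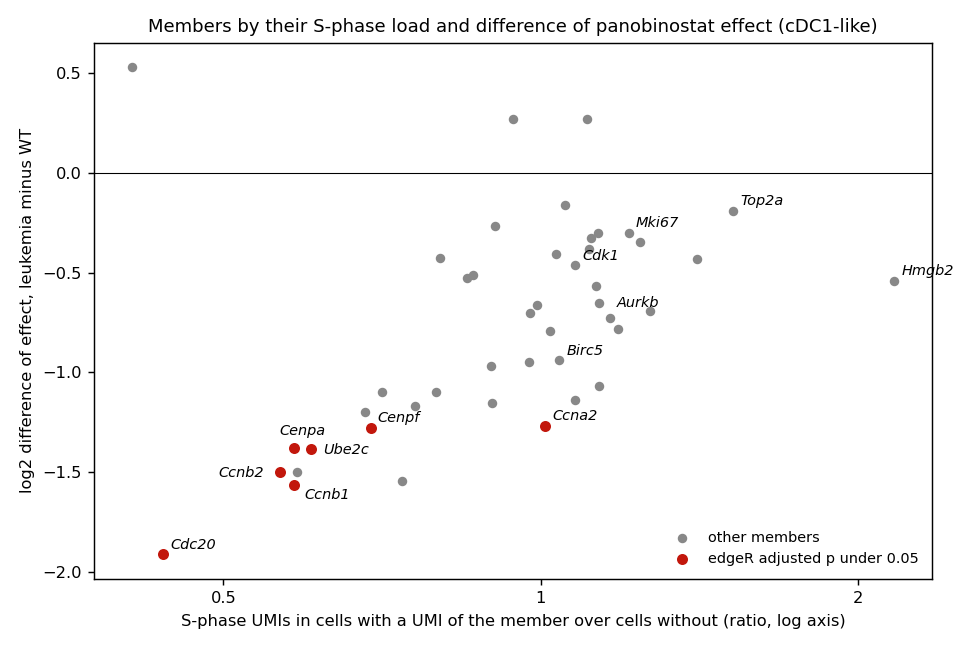
S-phase UMI ratio of each of the 45 members (x axis, log scale) against the log2 difference of panobinostat response between leukemia and WT cDC1-like cells (y axis). Cdc20 lies lowest on the y axis (-1.91) at a ratio of 0.44, with Ccnb1, Ccnb2, Cenpa and Ube2c near it, and Top2a (-0.19) and Hmgb2 (-0.54) at the right. The point at the upper left is Cdc25c, read in 9 cells.

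Across the 3380 cDC1-like cells, the genes outside all lists whose log expression followed the summed member level most closely were Stmn1, a microtubule destabiliser (r = 0.77), and the tubulins Tuba1b (0.68) and Tubb5 (0.63). Ptma (0.67), the chromatin protein Hmgb1 (0.60), linker histone Hist1h1b (0.60), H2afx (0.59), Cenpm (0.57), Asf1b (0.56) and Ran (0.56) completed the 10. Within the list, Hmgb2 (0.86), Birc5 (0.77), Mki67 and Top2a (0.72) followed the sum best, of which each is a part, and Gtse1 (0.18) least. The cells share depth and library, and these values are descriptions.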

How the data were processed

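Mouse spleen cells enriched for dendritic cells were captured in 1 pooled 10x run of 6 hashed samples. The deposited matrix holds UMI counts per gene, hashtag and surface antibody, not normalized by the authors, and was made with Cell Ranger 3.1.0, per the file headers. The submitters' processing notes also name Seurat 3.1.0 and build mm10, without roles. Strand settings and filters are not given in the sources used here.

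Hashtags were called against a negative binomial background per tag (99% quantile). Cells with at least 500 genes, at most 10% mitochondrial UMIs and a doublet score under 0.5 were kept. They were clustered with scanpy 1.11.5 on 2000 variable genes without cell-cycle genes (30 components, 15 neighbours, Leiden resolution 1), and clusters were named from fixed markers. Counts were summed per class and sample (at least 10 cells), 215853 to 16504760 UMIs per sum in DC-like classes, and tested with edgeR 4.0.16 (quasi-likelihood, Benjamini-Hochberg over all genes, threshold 0.05). DESeq2 1.42.0 was an alternative. The DC-like classes were each compared by panobinostat against vehicle and leukemia against WT. Shares were tested by exact permutation and intervals are 95%. Class medians of all genes lay near 0. Counts of members at an unadjusted p under 0.05 are given without the share of all genes at that threshold.

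In simulated data the treatment test in cDC1-like sums (10014 genes) recovered 57% of genes changed 1.5-fold and 88% of those changed 2-fold. Recovery was 56% and 79% in cDC2-like (9781 genes), 34% and 65% in mature DC-like (8437 genes) and 33% and 78% in pDC-like sums (8941 genes).

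Genes named were 12 anchors (Mki67, Top2a, Cdk1, Ccnb1, Ccnb2, Ccna2, Aurkb, Birc5, Cdc20, Ube2c, Hmgb2, Cenpa), given as a range with the extreme genes where no member or nearly all members were called, the 6 called members with the largest change, exceptions of 5 or fewer, 3 called genes from other lists and the 10 genes following the sum. The members and lists were chosen with earlier results of these data known. Hashtag names were read as leukemia or WT, vehicle (D5W) or panobinostat (LBH). Alternatives covered normalization, filters, thinning, clustering, hashtag and doublet calls, the replicate block and leaving out each sample.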

Additional observations from a re-analysis of the deposited data

Results flagged for a closer look

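In cDC1-like cells the response to panobinostat differed between leukemia and WT samples for 7 members by the interaction test of edgeR. The log2 differences, leukemia minus WT, were -1.91 for Cdc20, -1.56 for Ccnb1, -1.499 for Ccnb2, -1.38 for Ube2c, -1.38 for Cenpa, -1.28 for Cenpf and -1.27 for Ccna2. WT had 1 sample per treatment, and neither can be left out of this test. DESeq2 called Ube2c alone, thinned cells 2 members, and leaving out 1 leukemia sample gave 8 to 22.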

How the results depend on the processing

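Among the DC-like classes, the cycling clusters, picked by their G2/M-high share, lay in both cDC-like classes only. Class differences of called members changed sign under 1 alternative, leaving out those clusters, which was chosen after seeing the data. There 12 of 36 did so between cDC1-like and mature DC-like cells, among them Ccnb1 (-0.16), Top2a (-0.0899), Ube2c (-0.24) and, called, Nusap1 (-0.87). So did 2 of 31 against cDC2-like cells, 2 of 39 between cDC1-like and pDC-like cells and 2 of 40 between cDC2-like and pDC-like cells, where Tubb4b was called (-0.39). Without those clusters cDC1-like against cDC2-like cells had 6 members lower and 4 higher, cDC1-like against mature 9 higher and 3 lower, and cDC2-like against pDC-like 1 lower, and thinning gave 18 lower in the first. The rise with panobinostat in cDC1-like cells (6 members) became 3 by DESeq2, 15 at Leiden resolution 0.5, 2 when thinned, 17 without cycling clusters, 16 at a doublet score under 0.3, 13 with hashtags called by ratio, 28 without the low-count filter and 0 in leukemia only. Leukemia against WT became 1 (ratio call) and 2 (no filter) lower in cDC1-like and 3 higher in cDC2-like cells (no filter). In mature DC-like cells the 5 became 0 by DESeq2, without G2/M-high cells, at resolution 0.5, with cell-cycle genes in the clustering, when thinned and with the unnamed mature-like cluster 5 added, 3 at resolution 2 and by ratio call, and 1 at a doublet score under 0.3. The different response in cDC1-like cells (7) became 1 by DESeq2, 0 without G2/M-high cells, 2 when thinned, 12 by ratio call and 15 without the filter, and in cDC2-like cells (0) 1 without G2/M-high cells, at resolution 2 and without cycling clusters, 3 when thinned and 12 without the filter. The pDC-like share difference was 0 at 5 UMIs, and the cDC2-like to pDC-like ratio of summed level, 4.44, was 10.1 without the broad members. Leaving out G2/M-high cells removes member UMIs by definition, so a loss of calls there is partly built in. The causes were not tested.

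Leaving out 1 sample at a time, the panobinostat count in cDC1-like cells ran from 0 to 27 (24 without leukemia panobinostat 1), the different response from 8 to 22 in cDC1-like (14 without leukemia vehicle 1) and 7 to 29 in cDC2-like cells, and leukemia against WT from 0 to 7 in mature DC-like and 0 to 1 in cDC2-like cells. In cDC1-like cells the latter ran from 0 to 4 higher (4 without WT panobinostat) and 0 to 7 lower (7 without WT vehicle). Share differences ran from 1.92 to 5.23 points in cDC1-like, -3.48 to 2.17 in cDC2-like (2.17 without leukemia vehicle 2, 0.17 without leukemia panobinostat 1), -0.024 to 1.37 in mature DC-like (below 0 without WT vehicle) and -0.81 to -0.45 in pDC-like cells. Values of named genes called in the main fits were followed over all alternatives, samples left out included. Of these, 1276 kept sign and call, 151 lost the call and 3 reversed. Most of the 1276 came from the class comparisons. For panobinostat in cDC1-like cells 71 kept the call and 41 lost it. For leukemia against WT in mature DC-like cells 29 kept it and 55 lost it.

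With the replicate block (leukemia 1, leukemia 2 and WT) the panobinostat count in cDC1-like cells was 10 in place of 6. The samples share only a number: deviations of same-numbered samples correlated at 0.0317 to 0.166 over the 4 classes. With no replicate block, the class comparison of cDC1-like and cDC2-like cells gave 30 lower and 1 higher. Having 1 WT sample per treatment and the depth, lowest for the 40 pDC-like cells of WT panobinostat, limit the treatment results. The tag of leukemia vehicle 2 was weak mainly outside the DC-like classes.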
